A study of Rattus norvegicus with 6 samples.

Results

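The genes examined here are the 93 genes that gathered the most reads in cultured rat macrophages, out of 29516 gene IDs in the count table. They were chosen by their level in wild-type cells: a mean of at least 1000 counts per 1000000 gene counts (CPM) over the 3 wild-type libraries. The threshold was met by 97 genes, and 4 of them were left out of the set beforehand, so that the 93 form 0.315% of all IDs and 0.543% of the 17135 IDs with a count. The table gives Ensembl IDs without gene names, and the RefSeq table at hand (assembly GRCr8) matched 0 of the IDs. The genes are therefore given by their rank among the 93, from 1 for the highest mean wild-type CPM, and no function, sequence or position is stated for any of them. The label of the cells as macrophages was not checked against marker genes for the same reason.

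Both groups were bone marrow-derived macrophages of Wistar-Kyoto (WKY) rats, cells grown in culture from precursors in the marrow. One group came from wild-type animals (3 libraries) and the other from animals with a Cyp2j4 knockout, Cyp2j4-/-, on the same strain (3 libraries). Cyp2j4 encodes a cytochrome P450 epoxygenase, an enzyme that turns arachidonic acid into epoxyeicosatrienoic acids. The labels say nothing of the age and sex of the rats, the days in culture or which rat gave which library. A p-value here thus sets the difference between the groups against the spread of libraries within them, which is not known to be a spread between rats. Part of that spread may be technical. The libraries held from 21590429 to 33916549 gene counts, with the 3 knockout libraries the 3 shallowest. The series title asks about a fibrosis-related expression pattern under the control of a macrophage epoxygenase. The genes examined here show only how those with the most reads behaved beside it, not the transcriptome as a whole.

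In any animal cell a small set of genes supplies a large part of the messenger RNA. Such genes usually serve tasks that every cell has, such as protein synthesis, the cytoskeleton and energy metabolism, and in specialised cells also the products that mark the cell type. For macrophages these are known to include lysosomal enzymes, secreted proteins and surface receptors. Because every read taken by such a gene is a read not given to another, a change in a few of them shifts the CPM of all other genes in the same library. CPM counts reads and is not divided by gene length, so that a rank gives the order of read shares and not the order of transcript numbers.

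The 93 genes together took at least 34.3% of the gene counts in every library. Their share was 36.7%, 34.3% and 35.5% in wild type replicates 1, 2 and 3. In knockout it was 35.2%, 38.9% and 36.6% in replicates 1, 2 and 3. Knockout replicate 2 had the highest share and wild type replicate 2 the lowest, 4.52 percentage points apart, and the groups overlapped. The mean share was 35.5% ± 1.19 in wild type against 36.9% ± 1.83 in knockout (SD, n = 3 each). The means were 1.40 percentage points apart, more than the SD between wild-type libraries and less than that between knockout libraries. The wild-type libraries chose and ranked the genes, so that shares are compared between the genotypes as a description, with no test. The difference was 0.420 points without knockout replicate 2, 0.816 without wild type replicate 2 and 2.24 without knockout replicate 1. The 4 genes left out took a further 1.5% to 2.5% of counts.

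**Figure D1:**
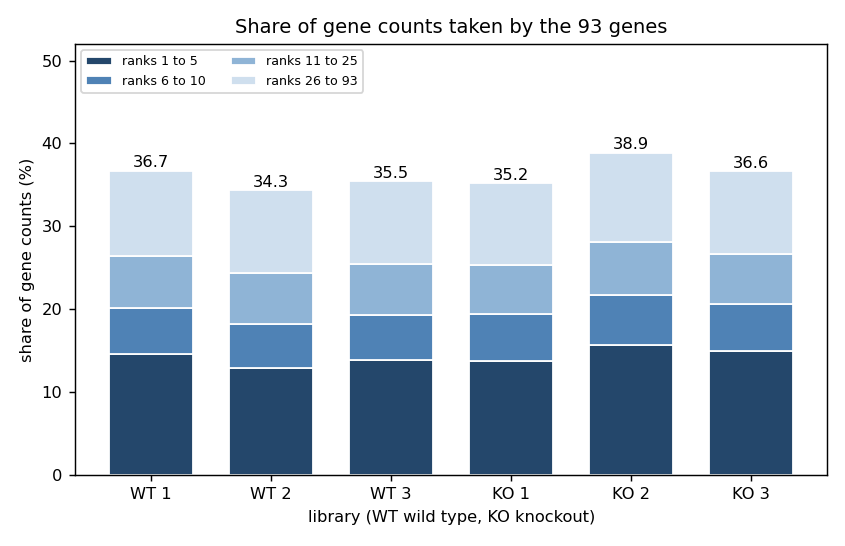
Share of gene counts (%, vertical axis) taken by the 93 genes in each of the 6 libraries (horizontal axis), with each bar divided into 4 bands of rank and its total printed above it. The totals run from 34.3% in wild type replicate 2 to 38.9% in knockout replicate 2, and the first 5 genes form the largest band in all 6.

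Within the set the reads were concentrated in the first ranks. Genes 1 to 5 took 12.9% to 15.6% of all gene counts per library, genes 6 to 10 took 5.37% to 6.10%, genes 11 to 25 took 5.96% to 6.42%, and the remaining 68 genes 9.86% to 10.7%. The 6th to 10th genes took 5.45% ± 0.10 in wild type against 5.84% ± 0.230 in knockout (SD, n = 3 each). Their share was higher in each knockout library than in each wild-type library. The other bands of rank overlapped between the genotypes, as did each of these genes taken alone in CPM. The share of ranks 11 to 25 was 6.17% ± 0.0892 in wild type against 6.13% ± 0.253 in knockout, and that of ranks 26 to 93 was 10.1% ± 0.184 and 10.2% ± 0.458 (SD, n = 3 each). To reach 50% of the gene counts of a library took from 218 genes in knockout replicate 2 to 333 in wild type replicate 2, counting all genes in order of their counts.

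Mean wild-type levels spanned 37.4-fold, from 37428 CPM at rank 1 to 1001 CPM at rank 93. Of the 93 genes, 9 lay above 10000 CPM and 14 above 5000, while 60 lay between 1000 and 2000. The same 5 genes were the first 5 of the whole table in all 6 libraries. The levels fell steeply from rank 5 (22805 CPM) to rank 6 (13107 CPM) and again from rank 9 (10238 CPM) to rank 10 (7433 CPM), so the first ranks form steps, whereas neighbours at lower ranks differ by little.

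**Figure D2:**
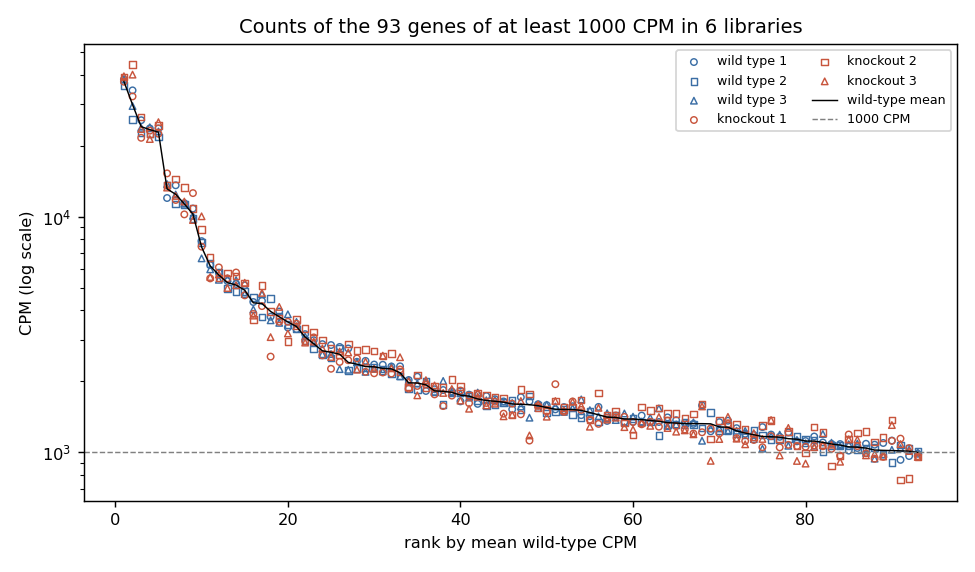
CPM of each of the 93 genes (vertical axis, log scale) against its rank by mean wild-type CPM (horizontal axis), with 1 symbol per library, the wild-type mean as a line and 1000 CPM as a dashed line. The 6 symbols of a gene lie close together over a 37.4-fold range of level, and rank 2 is the widest of the first 5.

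Rank 1, ENSRNOG00000008816, had 38158, 35970 and 38156 CPM in wild type replicates 1 to 3 against 37338, 39034 and 39379 CPM in knockout replicates 1 to 3. The highest value exceeded the lowest by 1.09-fold and the groups overlapped. Its coefficient of variation (CV, the SD as a percentage of the mean) over the 6 libraries was 3.24%. It was the first gene of the whole table in 4 of the 6 libraries.

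Rank 2, ENSRNOG00000022619, took that place in knockout replicates 2 and 3. It had 34308, 25766 and 29434 CPM in wild type replicates 1 to 3 against 32342, 44061 and 40006 CPM in knockout replicates 1 to 3. Knockout replicates 2 and 3 lay above all wild-type libraries, and knockout replicate 1 lay inside the wild-type range. The means were 29836 ± 4285 CPM in wild type against 38803 ± 5951 CPM in knockout (SD, n = 3 each), a fitted 1.35-fold difference that was not called (log2 fold change 0.43 with an SE of 0.19, edgeR adjusted p = 0.650 over 11645 genes, 95% interval 0.00 to 0.86). This gene alone accounted for 0.897 of the 1.40 percentage points between the group means of the total share. Without it the other 92 genes took 32.5% ± 0.760 in wild type against 33.0% ± 1.28 in knockout (SD, n = 3 each). Without knockout replicate 2 as well, the difference in that share changed sign to -0.214 points. That share still counts rank 2 in its total. With rank 2 taken out of the total too, the difference was 0.838 points with all libraries and -0.00255 points without knockout replicate 2.

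Ranks 3, 4 and 5 did not keep the same order in every library. Rank 3 had 25637, 22775 and 23798 CPM in wild type against 21588, 26483 and 23507 CPM in knockout, replicates 1 to 3. Rank 4 had 23656, 22555 and 23930 CPM in wild type against 23154, 22469 and 21329 CPM in knockout. Rank 5 had 23662, 21789 and 22965 CPM in wild type against 22465, 24290 and 25157 CPM in knockout. The ranges of these 3 genes overlapped one another within each genotype, and each gene's genotypes overlapped too. Compared library by library, rank 3 lay above rank 5 in each wild-type library and below it in knockout replicates 1 and 3.

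Ranks 6 to 9 formed the next step, above 10000 CPM in wild type. Rank 6 had 11990, 13596 and 13735 CPM in wild type replicates 1 to 3 against 15250, 13589 and 13277 CPM in knockout. Rank 7 had 13576, 11300 and 12409 CPM in wild type against 11763, 14462 and 12237 CPM in knockout. Rank 8 had 11402, 11233 and 11339 CPM in wild type against 10218, 13301 and 11586 CPM in knockout. The wild-type libraries of rank 8 lay close together (CV 0.753%), and its knockout libraries spread below and above them (CV 13.2%). Rank 9 had 10820, 9819 and 10074 CPM in wild type against 12579, 10820 and 9670 CPM in knockout. Knockout replicate 2 was the highest library at ranks 7 and 8 and knockout replicate 1 at ranks 6 and 9, and the genotypes overlapped at each of these genes in CPM. Ranks 11 to 25 lay between 2657 and 6175 CPM in wild type, with CVs over the 6 libraries from 3.80% to 19.0% and a median of 6.21%.

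The CV of the 93 genes over the 6 libraries ran from 1.58% to 19.7% with a median of 7.08%. For 20 genes it was under 5%, for 58 between 5% and 10%, and for 15 above 10%. Counting error alone gives 0.10% to 0.626% at these levels, where every count is at least 18261. The highest library exceeded the lowest by less than 1.3-fold in 77 genes and by more than 1.5-fold in 6. The largest such ratio was 1.76, at rank 18. Reads were counted without molecular identifiers, and counting error is the least error they can have.

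**Figure D3:**
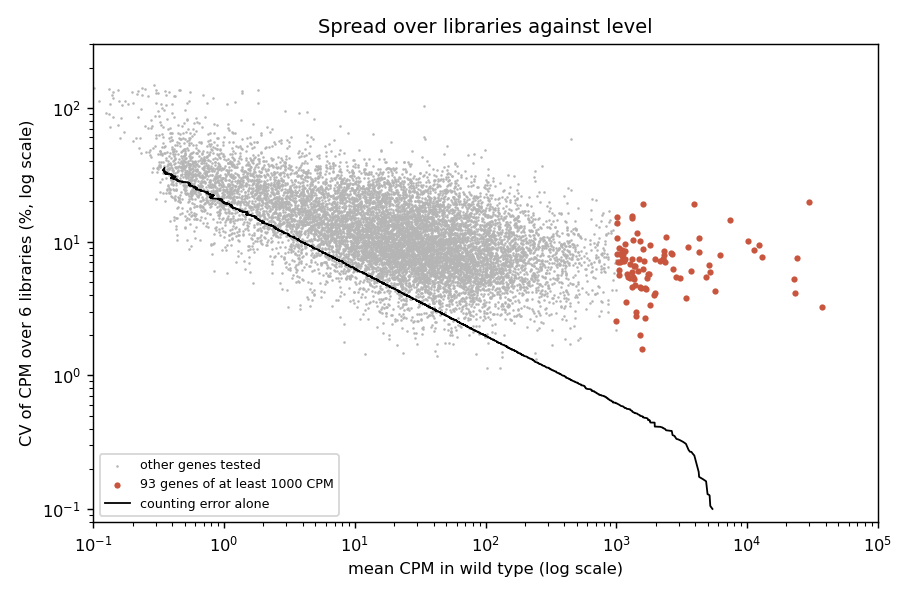
CV of CPM over the 6 libraries (%, vertical axis, log scale) against mean wild-type CPM (horizontal axis, log scale) for the genes tested, with the 93 genes in red and the CV from counting error alone as a line. The cloud follows the line at low levels and flattens at high levels, where the 93 genes lie between 1.58% and 19.7%.

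Set beside genes of lower level, the CV fell with level up to about 100 CPM and little beyond it. The median CV was 17.0% over 2987 genes of 1 to 10 CPM in wild type, 9.45% over 5998 genes of 10 to 100 CPM, 7.65% over 1604 genes of 100 to 1000 CPM, and 7.28% over the 135 of those above 500 CPM. For the 93 genes it was 7.08%, and over all 11645 genes tested 11.5%. The share of genes with a CV above 10% was 16.1% among the 93 and 29.5% among those of 100 to 1000 CPM. These values are a description, since level chose the genes.

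How steady the 93 genes appeared depended on the scale. CPM divides by a total of which they form at least 34.3%. The part of this in their CV was not tested. Scaled by TMM, edgeR's trimmed mean of M values, which sets library sizes by the bulk of the genes, their median CV was 8.94%, with 36 genes above 10% and 11 under 5%. Genes of 100 to 1000 CPM had a median of 7.91% on the TMM scale, below the 8.94% of the 93, where on the CPM scale they lay above them. Per 1000000 of the counts outside the set, the median of the 93 was 8.0% and that of the genes of 100 to 1000 CPM 7.79%. Which group of genes was the steadier thus turned with the scale.

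The knockout libraries varied more among themselves than the wild-type libraries did, and the spread was lowest without knockout replicate 2. The median CV was 4.45% within wild type and 7.91% within knockout, and it was larger in knockout for 69 of the 93 genes. Between knockout replicates 1 and 3 alone the median was 4.84%, larger than in wild type for 51 genes. That CV rests on 2 libraries and the wild-type CV on 3, so the values are not directly comparable. Over the 5 libraries without knockout replicate 2 the median CV of the 93 was 5.60%, against 7.08% over all 6. For all genes tested it fell likewise, from 11.5% to 9.04%, and for genes of 100 to 1000 CPM from 7.65% to 5.99%. The lower spread without that library was thus not particular to the 93. Genes of 100 to 1000 CPM also varied more within knockout, with medians of 4.44% within wild type and 8.59% within knockout.

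Knockout replicate 2 was the highest of the 6 libraries for 45 of the 93 genes in CPM and for 66 on the TMM scale. It was the highest knockout library for 55 genes and the lowest for 14 (75 highest on the TMM scale). In no other library did more than 13 genes have their highest CPM. Such counts are given for the 93 only, without those of all genes tested beside them. They are therefore not read as a trait of the 93. The lowest CPM fell on knockout replicate 3 for 25 genes, knockout replicate 1 for 23, wild type replicate 2 for 19, wild type replicate 3 for 11, knockout replicate 2 for 8 and wild type replicate 1 for 7. The median gene lay 0.10 above its median in the other libraries on the log2 CPM scale in knockout replicate 2, and between -0.06 and 0.04 in each other library. In that library 9.50% of the reads listed were assigned to no annotated feature, against 10.3% to 10.7% in the others. The part of this difference in the higher values was not tested. Its TMM factor was 0.942, against 0.984 to 1.04, a value computed from the same counts and so not separate from them.

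**Figure D4:**
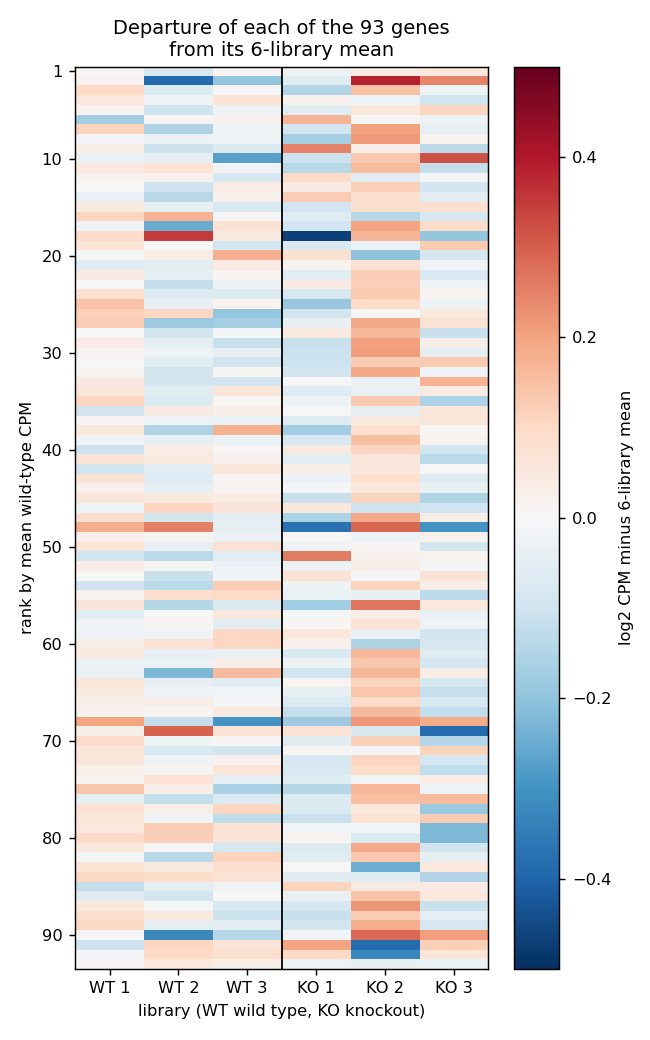
Log2 CPM of each of the 93 genes (rows, by rank) minus its mean over the 6 libraries, for each library (columns), with red above and blue below the mean. The column of knockout replicate 2, the highest library for 45 genes, is red over 69 rows and deepest blue at ranks 91 and 92.

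The 5 genes with the widest spread were ranks 2, 48, 18, 68 and 90, and they did not share one pattern over the libraries. Rank 18, ENSRNOG00000030187, had 3761, 4488 and 3632 CPM in wild type replicates 1 to 3 against 2548, 3956 and 3082 CPM in knockout (CV 19.0%). Rank 48 had 1645, 1730 and 1403 CPM in wild type against 1122, 1772 and 1180 CPM in knockout (CV 19.1%). Both were lowest in knockout replicates 1 and 3, below all wild-type libraries, while knockout replicate 2 lay inside the wild-type range at rank 18 and above it at rank 48. Rank 68 had 1581, 1269 and 1120 CPM in wild type against 1217, 1604 and 1566 CPM in knockout (CV 15.4%), with a CV of 17.8% within wild type alone. Rank 90 had 1122, 905 and 1025 CPM in wild type against 1119, 1374 and 1305 CPM in knockout (CV 15.2%). Like rank 2, it was highest in knockout replicates 2 and 3 and lowest in wild type replicate 2.

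The 5 steadiest genes in CPM were ranks 49, 52, 93, 44 and 57. Rank 49, ENSRNOG00000011891, had 1601, 1590 and 1543 CPM in wild type replicates 1 to 3 against 1574, 1548 and 1596 CPM in knockout, a CV of 1.58%. Its highest library exceeded its lowest by 1.04-fold, and the groups overlapped. The CV of the other four was 2.02%, 2.55%, 2.70% and 2.79%. On the TMM scale rank 93 had the lowest CV, 2.67%, and rank 49 stood at 3.88%.

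Few of the 93 genes left the range above 1000 CPM in any library. In all 6 libraries 80 genes stayed at or above that level, and the lowest value of any gene was 763 CPM, at rank 91 in knockout replicate 2. The knockout libraries took no part in the choice of the genes, and 87 of the 93 had a knockout mean of at least 1000 CPM. The 6 that did not had wild-type means of at most 1117 CPM and knockout means of at least 944 CPM. In turn 5 other genes reached 1000 CPM in knockout, with wild-type means of 918 to 990 CPM, so both sets of genes lay close to the threshold.

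At the threshold itself, ranks 91, 92 and 93 had wild-type means of 1015, 1012 and 1001 CPM. The 3 genes just below it had 998.2, 990.1 and 990.1 CPM. Ranks 91 and 92 fell to 763 and 775 CPM in knockout replicate 2 and had 1144 and 1043 CPM in knockout replicate 1. Knockout replicate 2 was thus low at these genes, while it was the highest of the 6 libraries at 45 others.

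None of the 93 genes was called in knockout against wild type. The test was edgeR's quasi-likelihood test on the counts of all 11645 genes kept by its filter, with Benjamini-Hochberg adjustment, and 0.120% of those genes were called at an adjusted p under 0.05 (0.112% higher and 0.00859% lower in knockout). All 93 passed the filter, and the lowest adjusted p among them was 0.453. At an unadjusted p under 0.05, 3 of the 93 were higher and 0 lower, where 4.71% of all genes tested were higher and 2.94% lower (4.24% and 2.24% of the 1604 genes of 100 to 1000 CPM). DESeq2 called 0 of the 93, and 1.20% of the 16319 genes to which it gave an adjusted p. At an unadjusted p under 0.05 it had 5 of the 93 higher and 0 lower, beside 3.69% and 1.39% of 17135 genes. Limma-voom called 0 of the 93 and 0.120% of all genes tested, with 4 of the 93 higher and 0 lower at an unadjusted p under 0.05, beside 4.62% and 3.13%. With the replicate number as a block, edgeR called 0 of the 93 and 0.232% of all genes, with 0 of the 93 at an unadjusted p under 0.05 where 3.12% of all genes were higher and 1.54% lower. Choosing genes for a high wild-type level tilts this comparison towards lower values in knockout, most of all near 1000 CPM.

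The folds were small and their intervals narrow. Fitted log2 fold changes ran from -0.25 to 0.43, with a median of 0.07 against -0.01 over all genes tested, and the median SE was 0.10. The 95% interval of the fit, taken gene by gene, lay within a 2-fold change in either direction for all 93 genes and within 1.5-fold for 87. The 6 exceptions were ranks 2, 10, 18, 48, 68 and 90. In plain CPM, the mean in knockout was within 10% of that in wild type, as a ratio between 0.9 and 1.1, for 79 genes.

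**Figure D5:**
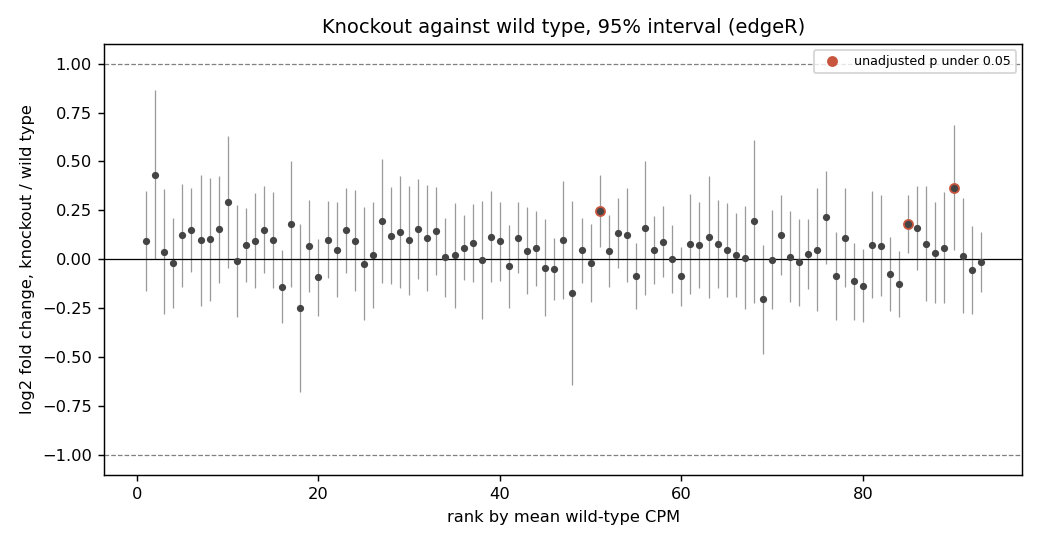
Fitted log2 fold change, knockout over wild type (vertical axis), with its 95% interval for each of the 93 genes by rank (horizontal axis), and dashed lines at a 2-fold change in either direction. No interval reaches the dashed lines, and the 3 genes with an unadjusted p under 0.05, in red, lie above 0.

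The number of genes on each side of 0 moved with 1 library and with the scaling. Of the 93 fitted fold changes, 69 were above 0 with all libraries and 39 without knockout replicate 2, where the median became -0.02. Scaled by library totals 51 were above 0, and this scaling lowered the median of all genes tested from -0.01 to -0.06 as it lowered that of the 93 from 0.07 to 0.02. Without knockout replicate 2 the median of all genes tested moved from -0.0146 to -0.00683, opposite in direction to that of the 93. Signs of folds this near to 0 can change with 1 library or with the scaling and are not read as directions. Without knockout replicate 2, 2 of the 93 were higher and 7 lower at an unadjusted p under 0.05, where 9.49% and 8.77% of 11867 genes were, and 0 were called (lowest edgeR adjusted p 0.0736, at rank 48), beside 2.11% of those genes.

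The 3 genes with an unadjusted p under 0.05 were ranks 51, 85 and 90, none of them called. Rank 51 had 1522, 1484 and 1566 CPM in wild type replicates 1 to 3 against 1946, 1655 and 1651 CPM in knockout. Every knockout library lay above every wild-type library, and the log2 fold change was 0.25 ± 0.08 SE (edgeR adjusted p = 0.453). Rank 85 had 1017, 1066 and 1083 CPM in wild type against 1191, 1138 and 1136 CPM in knockout, again without overlap (log2 fold change 0.18 ± 0.06 SE, edgeR adjusted p = 0.533). At rank 90, described above, the groups overlapped through knockout replicate 1 (log2 fold change 0.37 ± 0.14 SE, edgeR adjusted p = 0.577). The 5 largest fitted values were those of ranks 2 (0.43), 90 (0.37), 10 (0.29), 51 (0.25) and 76 (0.21). Rank 10 had 7870, 7780 and 6650 CPM in wild type against 7456, 8829 and 10028 CPM in knockout, with knockout replicate 1 inside the wild-type range.

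The lowest fitted values were those of ranks 18, 69, 48, 16 and 80, at -0.25, -0.20, -0.17, -0.14 and -0.14 on the log2 scale, with edgeR adjusted p between 0.768 and 0.917. Rank 16 had 4342, 4545 and 4039 CPM in wild type replicates 1 to 3 against 3866, 3666 and 3803 CPM in knockout. Rank 80 had 1117, 1140 and 1093 CPM in wild type against 1056, 995 and 896 CPM in knockout. In both genes every knockout library lay below every wild-type library. Rank 69 had 1228, 1473 and 1262 CPM in wild type against 1263, 1137 and 921 CPM in knockout, with overlap through knockout replicate 1. Without knockout replicate 2 the values at ranks 18 and 48 became -0.48 and -0.46.

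Counted over the set, the libraries of the groups did not overlap in CPM for 2 genes higher and 7 lower in knockout. Over all genes tested 5.31% were separated upward and 11.9% downward. On the TMM scale the numbers were 4 and 4 of the 93, beside 7.53% and 7.45% of all genes. The 4 genes higher on that scale were ranks 6, 51, 53 and 85, and the 4 lower were ranks 16, 60, 80 and 84. Rank 84 was the most even within wild type among these, at 1084, 1076 and 1061 CPM, with 969, 967 and 913 CPM in knockout (edgeR adjusted p = 0.768).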

How the data were processed

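The authors deposited raw counts of reads per Ensembl gene ID, not normalized. The submitters' processing notes name TopHat2, HTSeq and the rat build rn4. Their versions, the annotation and the strand setting were not given in the sources used here. The 5 HTSeq summary lines were kept out of totals; 0 columns belonged to other samples. Reads with more than one alignment (7.79% to 8.30% per library) were not assigned to a gene, so genes with near-identical copies may be undercounted.

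CPM was the count divided by the library's gene counts. Tests used R 4.3.3 with edgeR 4.0.16 (filterByExpr, TMM, glmQLFit and glmQLFTest at their defaults, genotype as the only term), with DESeq2 1.42.0 and limma 3.58.1 as alternatives, and were checked on simulated data. Intervals came from the F statistic. A planned permutation test of the share of counts is not given, because the wild-type libraries chose the genes. Members, gene lists and rules were chosen with earlier results of these data known. The rule for genes given individually took the first by level, by spread, by fold and beside the threshold. Part of the first 25 are summarised by their range, and only 4 IDs are printed, because no names were given. For the same reason the planned gene lists and cell type markers were not used. Residuals of same-numbered libraries correlated at -0.439, -0.138 and 0.148, and the numbers were not taken to pair the libraries.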

Additional observations from a re-analysis of the deposited data

How the results depend on the processing

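At an adjusted p under 0.05, 0 of the 93 genes were called higher and 0 lower in all 15 alternative fits (other scalings, filters, DESeq2, limma-voom, each library left out, replicate block). In the edgeR fit with all libraries and no block the counts were also 0 at an adjusted p under 0.1, and with genes chosen at 500 or 2000 CPM or on the mean of all 6 or of the knockout libraries. The lowest adjusted p of the 15 fits was 0.0736, without knockout replicate 2. With the replicate block the median log2 fold change was 0.07 and 0 genes were called; the numbers were not taken to pair the libraries. The share difference between the genotypes kept its sign, at 0.420 to 2.24 percentage points with 1 library left out and 1.19 to 1.49 with other choices of genes. The median log2 fold change lay between -0.02 (without knockout replicate 2) and 0.11. The median CV of 7.08% became 8.94% on the TMM scale and 8.0% per 1000000 counts outside the set, and 5.60% to 7.26% with 1 library left out, lowest without knockout replicate 2; the cause was not tested. The 10 genes with the largest fitted values in each direction (5 each) kept their sign in all 15 fits. They were picked by their values in these same libraries, which makes a kept sign likely beforehand, and no direction is read from it. Depth was no limit here: the smallest count of any of the 93 was 18261.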
